A study of Mus musculus with 13 samples.

Results

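The genes described here are 8 mouse genes of ADP-ribosylation, namely the poly(ADP-ribose) polymerase (PARP) genes *Parp1*, *Parp2*, *Parp3*, *Parp9*, *Parp10*, *Parp12* and *Parp14*, and *Dtx3l*. They were chosen by name to set 3 PARP genes of DNA repair (*Parp1*, *Parp2* and *Parp3*) beside 5 genes linked to interferon (*Parp9*, *Parp10*, *Parp12*, *Parp14* and *Dtx3l*). The choice was made with earlier results of these data known. All 8 were among the 13222 listed genes, and all 8 were among the 12319 genes kept for testing. RNA came from 4T1-Thy1.1 cells, a BALB/c mouse mammary carcinoma line carrying a Thy1.1 transgene, grown in a medium with FBS. The medium is DMEM/F12 in the labels and RPMI in the methods. Cells in 12-well plates were left untreated (control, n = 3) or received 200 ng/mL doxorubicin (DOX, n = 4), 25 ng/mL recombinant mouse IL-17A (IL-17A, n = 3) or both at these doses (DOX+IL-17A, n = 3), and RNA was isolated after 48 hours. All groups share 1 cell line in culture, so no immune or stromal cells are part of the design. The methods speak of biological replicates for the study in general, but how the libraries of a group were separated into cultures is not stated, so p-values measure the spread between these libraries, which may be technical.

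PARP enzymes take ADP-ribose from NAD+ and attach it to proteins or nucleic acids, as single units or as chains. PARP1 and PARP2 are switched on by DNA breaks and build chains that recruit repair factors, while PARP3 adds single units and takes part in double-strand break repair. PARP9, PARP10, PARP12 and PARP14 are known as products of interferon-stimulated genes with antiviral and signaling roles, and PARP9 works as a partner of the ubiquitin ligase DTX3L. Doxorubicin is an anthracycline that poisons topoisomerase II and breaks DNA, and IL-17A is an inflammatory cytokine.

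In the GRCm38 annotation, 3 of the 5 interferon-linked genes lie together on chromosome 16. *Parp14* (chr16:35832874-35871544, minus strand), *Dtx3l* (chr16:35926511-35939151, minus strand) and *Parp9* (chr16:35938470-35972605, plus strand) lie within 139732 bases. *Dtx3l* and *Parp9* run in opposite directions and share 682 bases at the 5′ ends of their annotations. The other members are spread over the genome, with *Parp1* on chromosome 1 (180568924-180601254), *Parp2* on chromosome 14 (50807841-50821301), *Parp3* on chromosome 9 (106470322-106476949), *Parp10* on chromosome 15 (76231174-76243441) and *Parp12* on chromosome 6 (39086410-39118349). The 3′ end of *Parp10*, where this assay reads, overlaps *Plec* on the same strand, so the count of *Parp10* is uncertain. The 3′ end of *Parp9* overlaps *Gm15564*, on the opposite strand and not among the listed genes. How reads in such overlaps, and the strand of reads, were handled in counting is not stated.

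The sequences before the start sites of 3 members are shown because *Parp1* passed the test in no comparison while *Parp12* and *Dtx3l* both rose with DOX. They come from RefSeq promoter windows (GRCm38.p6) of 300 bases, 250 before and 50 after the start, which were found for 5 of the 8 members and not for *Parp9*, *Parp10* and *Parp14*. Only bases outside annotated exons are printed, 5′ to 3′ on the strand of the gene, with each GC box (GGGCGG on either strand) that lies whole inside the stretch in capitals. The first 2 bases of the *Parp1* stretch, in lower case, are the end of a further match. The *Parp1* stretch is chr1:180568771-180568890 (plus strand), the *Parp12* stretch is chr6:39118350-39118469 (minus strand), and the *Dtx3l* stretch is chr16:35939207-35939277 (minus strand, inside the *Parp9* gene).
Parp1: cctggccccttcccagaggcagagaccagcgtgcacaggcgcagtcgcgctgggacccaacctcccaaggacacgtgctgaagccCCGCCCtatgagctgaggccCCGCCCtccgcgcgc
Parp12: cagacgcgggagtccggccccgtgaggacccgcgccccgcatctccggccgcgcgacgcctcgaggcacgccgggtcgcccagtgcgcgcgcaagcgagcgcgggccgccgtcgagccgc
Dtx3l: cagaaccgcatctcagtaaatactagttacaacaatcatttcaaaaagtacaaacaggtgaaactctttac

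The *Parp1* window held 4 GC box matches in all and the *Parp2* window 1, and the windows of *Parp3*, *Parp12* and *Dtx3l* held none. Of 32851 RefSeq windows, 35.7% held at least 1 GC box. The interferon-stimulated response element (GAAA and GAAA with 2 bases of any kind between them, both strands) was in 3.44% of windows and the gamma-activated site (TTCNNNGAA, both strands) in 8.30%, and neither was found in the 5 member windows. No match says only that these letters are not in these windows.

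Values are TMM-normalized reads, scaled to a common library size, with 1 value per gene and library, and all of them (100%) were whole multiples of the value of 1 read. Reads on listed genes ranged from 4445592 to 16930600 per library, and 3 reads, taken as the smallest detectable amount, equaled 0.183 to 0.613 units (counting error only). Members had between 36 reads (*Parp10*) and 3190 reads (*Parp14*) in a library. The 8 epithelial carcinoma markers were all detected, with summed values of 1781 to 2433 in the libraries without DOX and 925 to 1181 in those with DOX, and the part of this difference in the results was not tested. Control replicate 1 stood apart on the second principal component (74.7, against -42.9 to 23.4 in the other libraries), and DOX replicate 1 had a summed value of 215 for 7 skeletal muscle markers, against 3.93 to 34.5 elsewhere. DOX replicate 1 was also at 66.5 for red blood cell markers, against at most 14.4 elsewhere. Control replicate 1 held the 34.5 for muscle and was at 97.8 for fibroblast markers, against 23.8 to 64.8 elsewhere. The part of these markers in the results was not tested.

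Of the 5 interferon-linked members, 4 rose with DOX and the fifth, *Parp9*, did not pass the test. Of the 3 repair members 0 passed both thresholds. These were a limma adjusted p-value under 0.05 over all 12319 genes and a fold change above 2. The repair member *Parp3* alone had an unadjusted p under 0.05. It also passed the adjusted p (limma, 0.0113) at a log2 difference of 0.91, and 12.4% of all tested genes were higher by that rule. The counts of members called, and of 1 repair member with an unadjusted p under 0.05, were the same with voom, edgeR's quasi-likelihood test and DESeq2. Of all tested genes, 9.15% rose by these thresholds, and 4491 of 12319 had an unadjusted p under 0.05 in limma. The median log2 fold change was 1.42 over the interferon-linked members, 0.76 over the repair members and 0.09 over all tested genes. In these bulk samples, fewer cells expressing a gene and less of its RNA per cell cannot be told apart.

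*Parp14* encodes a large enzyme with macrodomains that adds single ADP-ribose units. Its values were 82.7, 74.4 and 101 in control and 212, 190.3, 286 and 285 with DOX. Every DOX library lay above every control library, and the means were 86.2 ± 13.8 (SD, n = 3) and 243 ± 49.6 (SD, n = 4). The difference on the log2(value + 1) scale was 1.48 (standard error 0.22, adjusted p = 0.000524, limma).

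*Parp12*, a zinc finger member that adds single units, had values of 15.6, 26.5 and 31.7 in control and 59.6, 67.8, 90.0 and 95.1 with DOX. The groups did not overlap, and the means differed 3.18-fold (24.6 ± 8.24 and 78.1 ± 17.1, SD). This was the largest log2 difference among the 8 members (1.66, standard error 0.30, adjusted p = 0.00137).

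*Parp10*, which also adds single units, had the fewest reads of the members and values of 6.09, 6.39 and 10.02 in control and 16.9, 18.8, 24.6 and 26.0 with DOX. Again no DOX library reached down to the controls (log2 difference 1.42, standard error 0.29, adjusted p = 0.00328). Since a pseudocount of 1 was added before the logarithm, this understates the 2.88-fold difference between the means.

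*Dtx3l* encodes the ubiquitin ligase that partners PARP9. Its values were 52.8, 60.5 and 80.7 in control and 111, 117, 158 and 178 with DOX. The groups were apart and the means differed 2.18-fold (log2 difference 1.11, standard error 0.24, adjusted p = 0.00521). Since the fold is close to 2, the call was lost without control replicate 1 (0.97, adjusted p = 0.0114) and without DOX replicate 4 (0.98).

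The result for *Parp9*, the partner of DTX3L, rests on 1 library. Its values were 171, 51.7 and 74.0 in control and 119, 121, 164 and 127 with DOX. Control replicate 1 lay above all DOX libraries while the other two controls lay below them. With all libraries the difference was 0.59 on the log2 scale (standard error 0.32, adjusted p = 0.19). Without control replicate 1 it was 1.08 with an adjusted p of 0.00446, which passed both thresholds. The ratio of *Parp9* to *Dtx3l* was 3.23 in control replicate 1 and between 0.624 and 1.39 in the other 12 libraries.

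Among the repair members, *Parp1*, the main sensor of DNA breaks in the family, did not pass the test. Its values were 122, 123 and 110.1 in control and 121, 95.9, 122 and 120.4 with DOX. The groups overlapped, and the log2 difference of -0.05 had a 95% interval from -0.42 to 0.32 (adjusted p = 0.86). A change beyond 2-fold in either direction thus lay outside the interval, although the sign turned positive (0.13) when libraries were scaled by size alone.

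*Parp3* moved toward higher values with DOX, from 50.1, 27.2 and 37.6 in control to 69.6, 64.9, 74.8 and 73.7. All 4 DOX libraries lay above the controls. The adjusted p was 0.0113 but the log2 difference of 0.91 (standard error 0.23) stayed under 2-fold, so that 5 members in all passed the adjusted p alone, against 12.4% of all tested genes that were higher by this rule. The 2-fold threshold was passed without control replicate 1 (1.12) and with scaling by library size alone (1.08).

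*Parp2*, which shares break sensing with *Parp1*, was the most scattered of the repair members. Its values were 16.7, 56.7 and 36.4 in control and 41.3, 43.0, 74.4 and 75.6 with DOX. The groups overlapped, and the difference of 0.76 had an interval from -0.10 to 1.63 (adjusted p = 0.19), so that neither no change nor a rise of more than 2-fold lay outside it.

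Counted by libraries, 5 of the 8 members were higher in every DOX library than in every control library (*Parp3*, *Parp10*, *Parp12*, *Parp14* and *Dtx3l*), against 18.5% of all tested genes. Scaling by library size alone moved the median of all genes from 0.09 to 0.24, and the differences of *Parp14* (1.65), *Parp12* (1.83), *Parp10* (1.58) and *Dtx3l* (1.28) still exceeded that shifted median. Summed values of the 4 listed of 8 leukocyte markers were also higher with DOX, at 42.1 to 65.1 against 18.1 to 36.2 in control. The defining marker *Ptprc* overlapped, between 0.644 and 1.42 with DOX and between 0.061 and 1.52 in control. The part of the leukocyte markers in the difference was not tested. Without DOX replicate 1, the library with the muscle markers, *Parp14* (1.53), *Parp12* (1.78), *Parp10* (1.52) and *Dtx3l* (1.21) remained called.

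**Figure D1:**
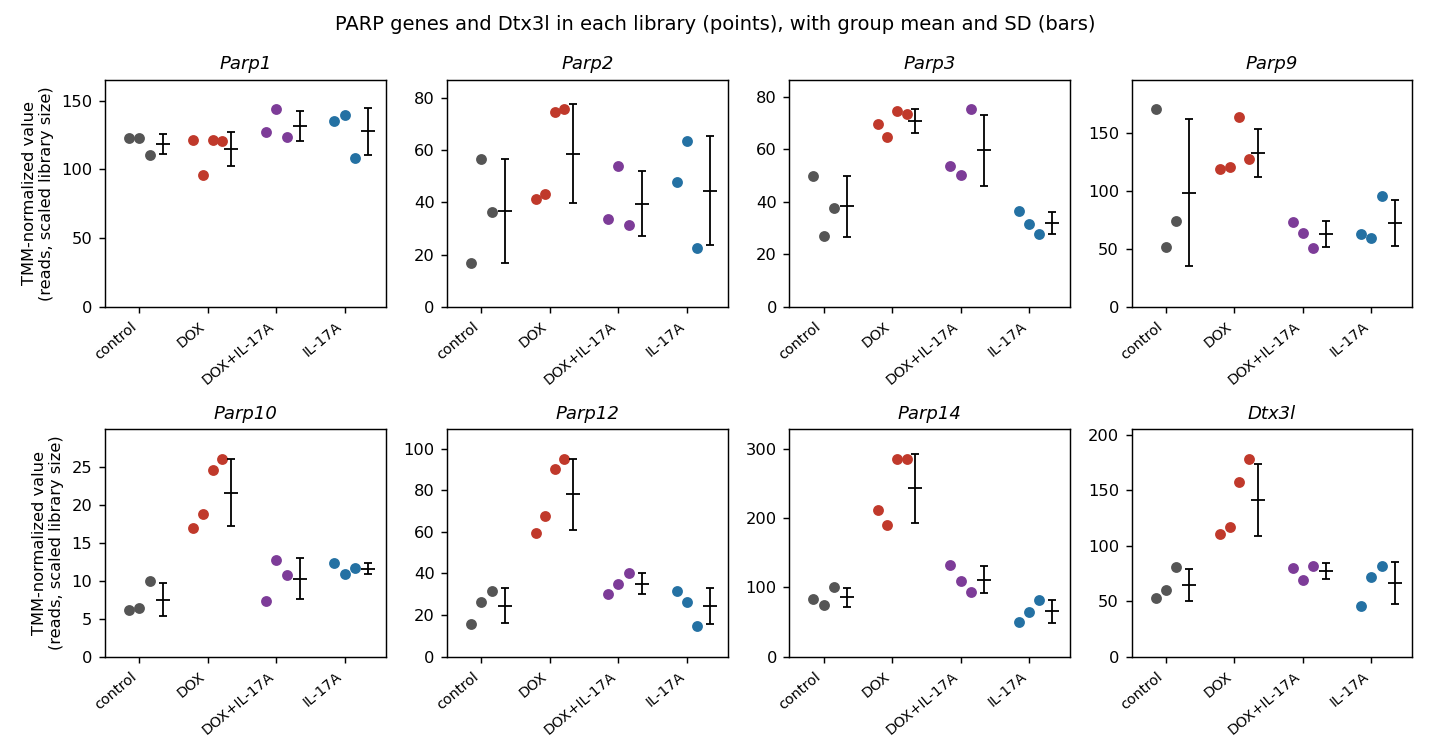
Values of the 8 genes in each of the 13 libraries, as TMM-normalized reads on a linear axis from 0 (points, 1 per library, colored by condition), with the mean and SD of each condition as a bar beside the points. *Parp10*, *Parp12*, *Parp14* and *Dtx3l* are highest in the 4 DOX libraries, *Parp1* lies between 95.9 and 144 throughout, and 1 control library of *Parp9* lies at 171.

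The next question is whether adding IL-17A to DOX changed these genes. Compared with DOX alone, all 5 interferon-linked members were lower in every DOX+IL-17A library, against 5.61% of all tested genes. Only *Parp14* passed the test across all genes, where 0.325% of genes fell by both thresholds. The median log2 difference was -1.07 over the interferon-linked members, -0.26 over the repair members and -0.03 over all tested genes.

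*Parp14* had values of 132, 109 and 92.9 with DOX+IL-17A, all below the lowest DOX library at 190.3. It fell by 1.11 on the log2 scale (standard error 0.22, adjusted p = 0.0408). This call is close to its threshold. When each library was left out in turn the adjusted p ran from 0.0143 to 0.227 and stayed under 0.05 in 5 of 13 fits, and it was 0.0615 with edgeR's quasi-likelihood test and 0.00171 with DESeq2. In limma it was 0.0592 both with scaling by library size only and with a pseudocount of 0.1.

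*Parp12* had values of 30.1, 34.95 and 40.2 with DOX+IL-17A, below the DOX libraries, which began at 59.6. Its difference from DOX was as large as that of *Parp14* (-1.12, standard error 0.30) but did not pass (adjusted p = 0.195). It passed with DESeq2 (adjusted p = 0.0390) and with limma on only the groups compared (adjusted p = 0.0218). Over 10 alternative settings its adjusted p ran from 0.0218 to 0.269. *Parp10* had values of 7.36, 12.7 and 10.7, again all below DOX (-1.01, standard error 0.29, adjusted p = 0.247).

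The PARP9 and DTX3L pair followed. *Dtx3l* was at 80.2, 68.7 and 82.0 with DOX+IL-17A (-0.84, standard error 0.24, adjusted p = 0.254). *Parp9* was at 73.2, 63.8 and 51.1 (-1.07, standard error 0.32, adjusted p = 0.274). Neither passed, although no library of the 2 conditions overlapped for either gene. Taken without adjustment, p was under 0.05 for all 5 interferon-linked members, against 6.35% of all tested genes. Without control replicate 1, which is in neither group but enters the shared estimate of the spread, *Parp9* (adjusted p = 0.0175) and *Parp12* (adjusted p = 0.0462) passed beside *Parp14*.

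Summed values of the leukocyte markers were 15.9 to 40.3 with DOX+IL-17A, below the 42.1 to 65.1 with DOX, while *Ptprc* was at 2.45 to 3.57 and above DOX. Their part in the difference was not tested.

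The repair members gave smaller estimates. *Parp1* was at 127, 144 and 124 with DOX+IL-17A, just above the DOX libraries as were 4.66% of tested genes, and its log2 difference of 0.20 had an interval from -0.17 to 0.56. *Parp2* was at 33.5, 53.8 and 31.1 (-0.54, interval -1.41 to 0.32) and *Parp3* at 53.6, 50.3 and 75.3 (-0.26, interval -0.75 to 0.23), both overlapping DOX. The adjusted p of the 3 genes was 0.994 or above.

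Compared with control, 0 of the 8 members passed both thresholds with DOX+IL-17A (limma, and also voom, edgeR and DESeq2), while 12.9% of all tested genes did. *Parp3* alone had an unadjusted p under 0.05, against 32.5% of tested genes. *Parp1* and *Parp3* were higher in every DOX+IL-17A library than in every control, as were 15.6% of tested genes, and the other 6 members overlapped the controls. The log2 differences of the interferon-linked members were 0.54 (*Parp12*), 0.41 (*Parp10*), 0.36 (*Parp14*), 0.27 (*Dtx3l*) and -0.48 (*Parp9*), with adjusted p from 0.25 to 0.506. The largest difference was that of *Parp3* (0.65, standard error 0.25, adjusted p = 0.0795), whose 3 libraries lay at or above 50.3 against a highest control of 50.1. The 95% intervals of *Parp14* (-0.15 to 0.87) and *Dtx3l* (-0.28 to 0.82) reached neither 2-fold higher nor 2-fold lower, whereas that of *Parp12* (-0.13 to 1.21) did. The interval of *Parp10* also reached 2-fold higher, and that of *Parp9* reached 2-fold lower.

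**Figure D2:**
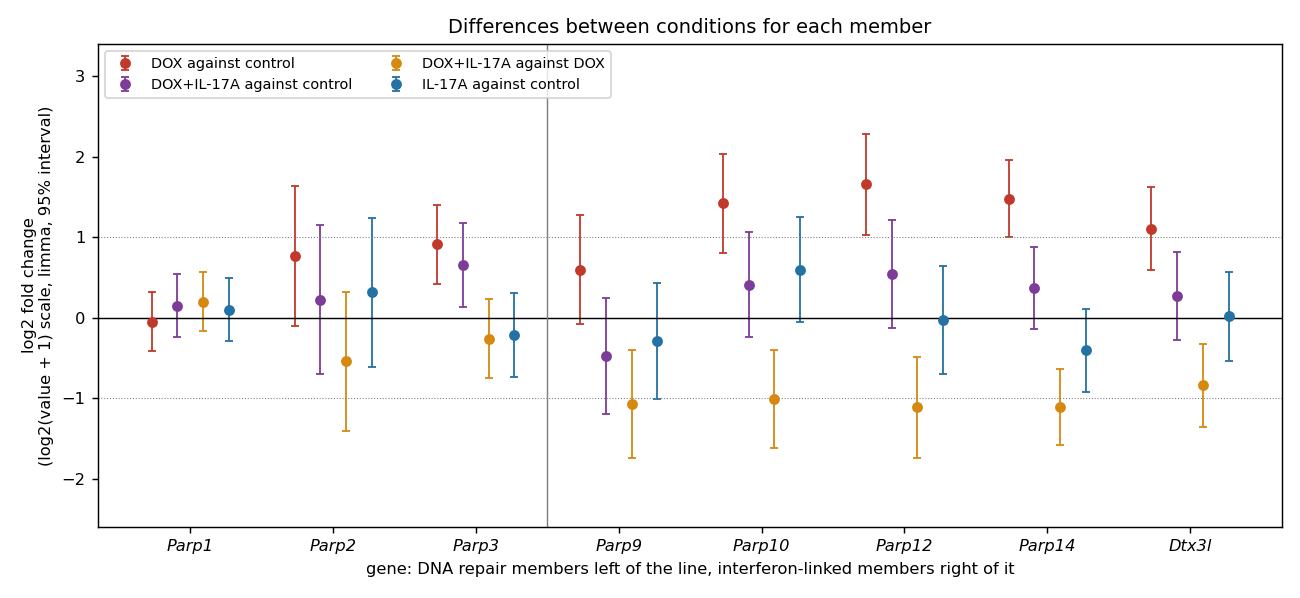
Log2 fold changes of the 8 genes in 4 comparisons (points) with limma 95% intervals (bars), on the log2(value + 1) scale, with dotted lines at 2-fold. Right of the vertical line, the interferon-linked genes lie between 0.59 and 1.66 for DOX against control and between -1.12 and -0.84 for DOX+IL-17A against DOX, while *Parp1* stays within 0.20 of 0 in all 4 comparisons.

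With IL-17A alone, 0 of the 8 members passed, with limma and with the other 3 tools. In limma 1 gene in all passed (0.00812%), and 3.08% of tested genes had an unadjusted p under 0.05, with 0 members among them. *Parp14* was at 49.7, 64.5 and 82.4, overlapping the controls, and *Dtx3l* was at 45.5, 71.4 and 82.0. *Parp12* was at 31.8, 26.1 and 14.9, *Parp9* at 63.2, 59.3 and 95.6, and *Parp10* at 12.3, 10.8 and 11.6. *Parp10* was the member with groups that did not overlap, as were 3.17% of tested genes on the higher side (0.59, standard error 0.31, adjusted p = 0.959). The repair genes spanned 108 to 139.6 (*Parp1*), 22.4 to 63.5 (*Parp2*) and 27.9 to 36.4 (*Parp3*). The intervals were wide, from -0.92 to 0.10 for *Parp14* and from -0.61 to 1.24 for *Parp2*, so that moderate changes were not detectable at this size.

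Whether the effect of IL-17A itself differed with and without DOX was tested as an interaction. In this test 0 of 12319 genes passed the adjusted p with limma, voom or edgeR and 18 with DESeq2, with 0 members among them, and 4.51% in limma had an unadjusted p under 0.05. Of the members, 4 of the 5 interferon-linked genes and no repair gene were among the latter. The estimate was lowest for *Parp10* (-1.61, standard error 0.42, unadjusted p = 0.00157, adjusted p = 0.593), followed by *Parp12* (-1.09), *Dtx3l* (-0.86), *Parp9* (-0.79) and *Parp14* (-0.70), the last 4 with an adjusted p of 0.901. The difference between the effects was therefore not shown for any member.

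Between the groups that both received IL-17A, 0 members passed both thresholds for DOX+IL-17A against IL-17A with any of the 4 tools, where 9.84% of tested genes did in limma. *Parp3* (0.87, standard error 0.25, adjusted p = 0.0294) and *Parp14* (0.77, standard error 0.24, adjusted p = 0.0451) passed the adjusted p alone on the higher side, as did 6.51% of tested genes. They were also the members with an unadjusted p under 0.05, against 28.5% of tested genes. *Parp12* (0.57), *Dtx3l* (0.25), *Parp1* (0.05), *Parp2* (-0.09), *Parp10* (-0.19) and *Parp9* (-0.19) did not.

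To set the classes side by side, the mean log2(value + 1) of the repair members was subtracted from that of the interferon-linked members in each library. This gap was -0.30, -0.76 and -0.21 in control and 0.15, 0.33, 0.33 and 0.33 with DOX, higher in all 4 DOX libraries. With DOX+IL-17A it was -0.43, -0.64 and -0.56, below every DOX library and overlapping the controls. With IL-17A it was -0.78, -0.77 and 0.01, where replicate 5 stood apart from the other two.

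From control to DOX the gap grew by 0.71, made of a difference of 1.25 in the interferon-linked mean and 0.54 in the repair mean. From DOX to DOX+IL-17A it shrank by 0.83, with -1.03 in the interferon-linked mean and -0.20 in the repair mean. DOX+IL-17A and control differed by -0.12. Leaving out each library in turn gave 0.54 to 0.82 for DOX minus control and -0.89 to -0.78 for DOX+IL-17A minus DOX. These are descriptions of the chosen genes and carry no test.

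**Figure D3:**
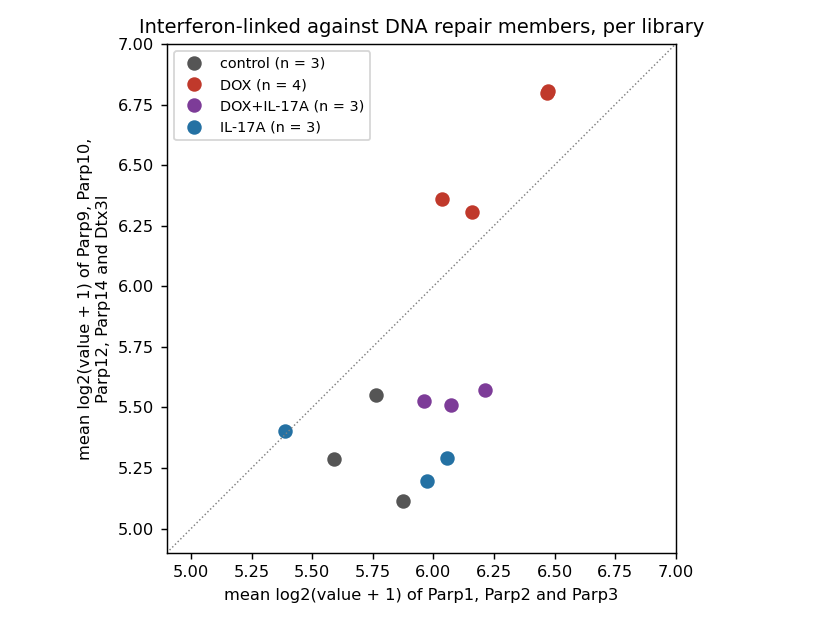
Mean log2(value + 1) of the 5 interferon-linked members (vertical axis) against that of the 3 repair members (horizontal axis), 1 point per library, with a dotted line of slope 1 as a guide. The DOX libraries (2 of the 4 points nearly coincide) lie highest on the vertical axis, between 6.31 and 6.81, while the DOX+IL-17A libraries lie between 5.51 and 5.57 at repair means of 5.96 to 6.21.

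Other PARP enzymes did not share 1 direction. Of 9 such genes, all tested, 1 rose and 1 fell with DOX, while 9.15% of all tested genes rose and 6.18% fell. *Parp11*, which adds single units, rose from 8.28 ± 2.55 to 26.2 ± 12.4 (1.48, adjusted p = 0.00703) and was at 10.4 ± 2.56 with DOX+IL-17A (-1.17 against DOX, adjusted p = 0.261). *Parp16*, the member of the endoplasmic reticulum membrane, fell from 18.9 ± 5.19 to 4.84 ± 2.28 (-1.82, adjusted p = 0.00568) and was at 3.18 ± 1.499 with DOX+IL-17A.

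*Tiparp*, which restrains the aryl hydrocarbon receptor (0.75, adjusted p = 0.0163), and *Parp4*, a component of vault particles (-0.80, adjusted p = 0.0284), passed the adjusted p but not 2-fold. The tankyrase genes *Tnks* (-0.96, adjusted p = 0.0509) and *Tnks2* (-0.57, adjusted p = 0.0528) just missed it. *Zc3hav1*, the catalytically inactive antiviral member, gave 0.29, *Parp8* 0.19 and *Parp6* -0.42, none of which passed. In DOX+IL-17A against DOX, 0 of the 9 passed with limma or the other 3 tools, and 2 (*Parp11* and *Zc3hav1*) had an unadjusted p under 0.05 in limma.

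Genes that remove ADP-ribose changed in both directions. Of the 8 names in this list, 6 were tested, and 2 fell and 1 rose with DOX, against 6.18% and 9.15% of all tested genes. *Adprh*, which removes ADP-ribose from arginine, fell from 39.0 ± 2.90 to 8.43 ± 0.448 (-2.08, adjusted p = 4.5e-05) and was at 12.2 ± 3.07 with DOX+IL-17A. *Macrod1*, a macrodomain hydrolase, fell from 12.3 ± 6.67 to 1.75 ± 0.674 (-2.20, adjusted p = 0.000842). Its relative *Macrod2* rose from 2.91 ± 0.550 to 8.74 ± 1.43 (1.31, adjusted p = 0.0107). The same 3 genes passed in DOX+IL-17A against control in limma, against 12.9% of all tested genes. With voom, 2 genes of the list fell and 0 rose in that comparison. Between DOX+IL-17A and DOX 0 of the 6 passed, with 0 at an unadjusted p under 0.05 in limma and 2 in edgeR and DESeq2. *Parg*, which cuts the chains (0.28), *Oard1* (0.32) and *Adprhl2* (0.23) did not pass. The other Deltex genes *Dtx2* (0.23), *Dtx3* (-0.10) and *Dtx4* (0.05), relatives of *Dtx3l*, did not pass either.

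**Figure D4:**
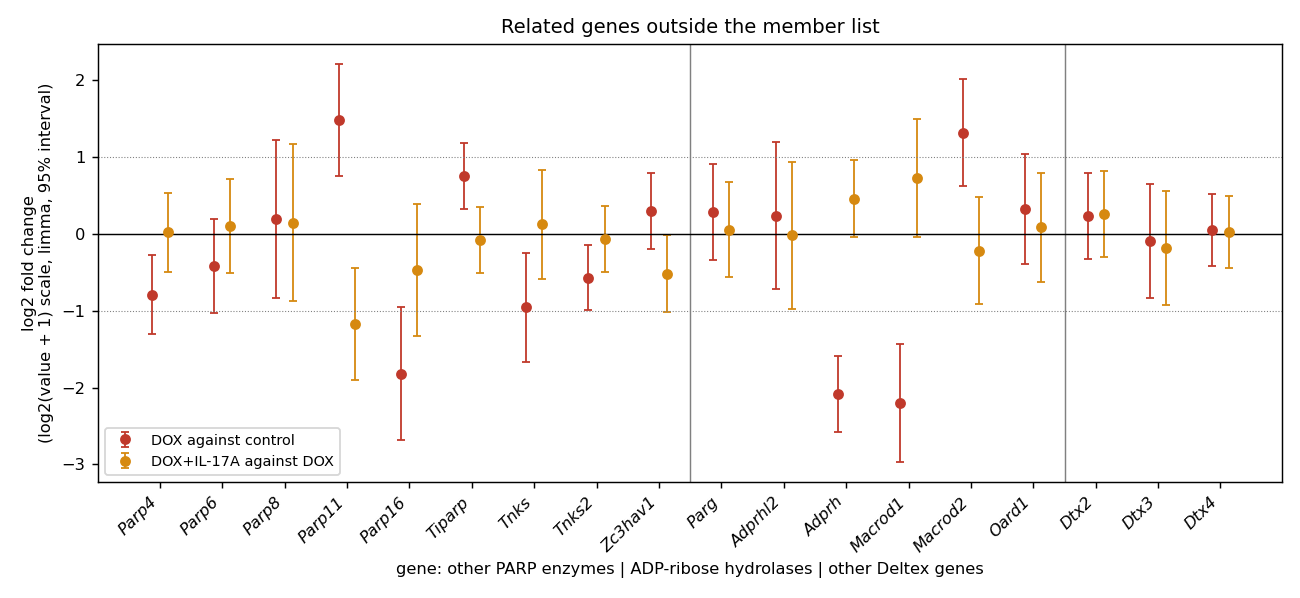
Log2 fold changes of the other PARP genes, the ADP-ribose hydrolases and the other Deltex genes for DOX against control and DOX+IL-17A against DOX, with limma 95% intervals and dotted lines at 2-fold. *Parp11* is the PARP outside the member list that lies at 1.48 with DOX and at -1.17 when IL-17A is added, and *Adprh* and *Macrod1* lie at -2.08 and -2.20 with DOX.

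Of all tested genes, 9.15% rose and 6.18% fell with DOX. Of 21 genes that work with PARP1 in repair, all tested, 5 rose with DOX and 0 fell, against 3 to 4 that rose and 0 to 1 that fell with the other 3 tools. They included the DNA ligase gene *Lig4* (1.67, adjusted p = 0.00235), the flap endonuclease gene *Fen1* (1.90, adjusted p = 0.00466), the replication fork gene *Timeless* (1.03, adjusted p = 0.00509) and the glycosylase gene *Ogg1* (1.76, adjusted p = 0.0205). The fifth, the sliding clamp gene *Pcna* (1.07, adjusted p = 0.0413), was named after its values were seen. The median over the 21 genes was 0.07, close to the 0.09 of all genes, and 0 passed in DOX+IL-17A against DOX, with 1 at an unadjusted p under 0.05 in limma.

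Of 14 tested genes that carry or regulate the interferon signal, 6 rose with DOX, against 9.15% of all tested genes. When IL-17A was added to DOX, 5 fell, against 0.325% of all tested genes. This list was written with earlier results in view, and it did not move in 1 direction. With DOX, 9 estimates were above 0 and 5 below (median 0.85). The means of *Ifnar1* (23.3 to 15.7), *Jak1* (354 to 217) and *Tyk2* (22.2 to 12.7) were lower than in control, and 0 genes were called lower. With IL-17A added to DOX, 10 estimates were below 0 and 4 above (median -0.37), and the mean of *Ifnar2* went from 83.4 to 138. Among those that rose with DOX, *Isg15* (4.52), *Irf7* (3.20), *Usp18* (2.92), *Socs1* (2.10) and *Stat2* (1.83) exceeded the 1.66 of *Parp12*. In DOX+IL-17A against DOX, the differences included -2.33 (*Isg15*), -1.88 (*Irf7*), -1.74 (*Usp18*) and -1.33 (*Stat2*), against -1.12 for *Parp12* and -1.11 for *Parp14*. *Socs1* was named after its values were seen.

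The genes most like each member over the 13 libraries were found by the root mean square difference between log2 values centered on each gene's mean, among genes with a mean value of at least 10. For *Parp14* they were *Ifih1* (0.25), *Slfn8* (0.26) and *Ddx58* (0.27). *Ifih1* and *Ddx58* encode the RNA sensors MDA5 and RIG-I. For *Dtx3l* they were *Dapp1* (0.22), *Tcirg1* (0.22) and *Pml* (0.23), for *Parp12* *Trafd1* (0.20), *Mitd1* (0.21) and *Trim21* (0.28), and for *Parp10* *Gm8979* (0.23), *Gm8989* (0.26) and *Aftph* (0.27). *Parp9* had less close genes, with *Tapbp* (0.30), *Irf9* (0.31) and *Rhbdl2* (0.31).

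For the repair members the same measure was taken. Closest to *Parp1* were *Lrrc58* (0.10), *Ddx1* (0.11) and *Sec31a* (0.13), closest to *Parp2* were *Bard1* (0.23), *Atxn7l3b* (0.24) and *6820431F20Rik* (0.24), and closest to *Parp3* were *Dpm2* (0.15), *Ccdc186* (0.17) and *Gtf2f1* (0.19). *Bard1* encodes the partner of BRCA1. A gene that varies little, such as *Parp1* (SD 0.15 on the log2 scale), gives small differences with other steady genes.

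Among the members themselves, *Dtx3l* was the 11th closest of 8197 genes to *Parp14* and the 17th closest to *Parp10*. *Parp10* was the 54th and *Parp14* the 99th closest to *Parp12*. The repair member *Parp3* was the 99th closest to *Parp14*, ahead of *Parp10* (138th) and *Parp9* (416th), and the 308th closest to *Dtx3l*, ahead of *Parp12* (515th). *Parp9* stood apart from its neighbor on the chromosome, with *Dtx3l* only 823rd in closeness, and control replicate 1 carries the largest departure between them. No member came closer to *Parp1* than rank 5453. The measure counts the size of variation as well as its pattern. *Parp1* varied less (SD 0.15) than the other members (SD 0.54 to 0.83), so its ranks do not separate the 2. These ranks describe 13 libraries that share their conditions, and carry no test.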

How the data were processed

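For each of 13 libraries, the deposited file gives 1 signal value per gene, already normalized. The authors prepared QuantSeq 3′ mRNA libraries (75 base reads), and per the labels and the methods used FastQC, Trimmomatic, STAR (mm10) and featureCounts, followed by TMM normalization. The table lists no columns of the authors' own comparisons. Of 13223 entries, 1 identical second entry was dropped. Each value was divided by the value of 1 read in its library, and 100% gave whole reads (tolerance 0.01 reads). Reads per library ranged from 4445592 to 16930600, and intervals cover the spread between libraries.

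Samples were grouped by their titles. Differences were tested by fitting log2(value + 1) of all 13 libraries with limma, using its trend option (9 residual degrees of freedom), on 12319 genes kept by edgeR's filterByExpr, with Benjamini-Hochberg adjustment over all of them, 2-sided. Calls needed an adjusted p under 0.05 and a fold above 2. Alternatives, 1 at a time, were a pseudocount of 0.1, voom, edgeR's quasi-likelihood test, DESeq2, a fit of the compared groups alone, library size scaling, no filter or at least 10 reads on average, calls without the fold, a block on the replicate number, and omission of single libraries. Dropping 2 libraries at once was added after seeing the data. The 8 members, the gene lists and the rule for named genes (every member, every gene of the short lists, up to 4 called genes of lower p per longer list, and 3 neighbors per member) were chosen with earlier results of these data known. The result of 1 listed gene is not reported here. Tests were tried on simulated data. Software was matplotlib 3.10.9, DESeq2 1.42.0, limma 3.58.1 and edgeR 4.0.16 in R 4.3.3, with scipy 1.17.1, pandas 2.3.3 and numpy 2.4.6 in python 3.11.15. Loci come from GENCODE (GRCm38) and promoter windows from RefSeq.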

Additional observations from a re-analysis of the deposited data

Results flagged for a closer look

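Of 8 members examined in the 4 DOX libraries, 1 had a library far from the others. *Parp1* was at 95.9 in DOX replicate 2 against 120.4 to 122 in the other 3, a gap of 0.95 of the whole range. Chance alone marks about 1 in 20 groups in this way. Without this library the difference between DOX and control was 0.03 on the log2 scale instead of -0.05, and neither passed the test. No member's IL-17A effect was shown to differ with and without DOX after adjustment over all genes.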

How the results depend on the processing

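The number of members called for DOX against control was 4, 3 to 5 when each library was left out, and 6 without both control replicate 1 and DOX replicate 1. For DOX+IL-17A against DOX it was 1, and 0 with edgeR's quasi-likelihood test, scaling by library size only, a pseudocount of 0.1 or the replicate block, 2 with DESeq2, 3 with only the groups compared, 3 without the same 2 libraries (chosen after seeing the data), and 0 to 3 when each library was left out. For DOX+IL-17A against IL-17A it was 0, 1 with library size only and 2 with the adjusted p alone. The replicate numbers were not taken to pair the libraries. Deviations of same-numbered libraries correlated with a mean of 0.15 over 13 pairs (lowest -0.18, 8 over 0.1), against -0.04 over 50 other pairs, and 7 of 12 libraries correlated best with their own number. With the replicate block, 4 members were called for DOX against control, and *Parp14* had an adjusted p of 0.201 for DOX+IL-17A against DOX.

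Some estimates changed sign. With library size only, *Parp1* was 0.13 for DOX against control, *Dtx3l* -0.028 for IL-17A against control, and *Parp2* 0.13, *Parp9* 0.026 and *Parp10* 0.014 for DOX+IL-17A against IL-17A. With the block, *Parp2* was -0.0025 for DOX+IL-17A and *Dtx3l* -0.018 for IL-17A against control. For the interaction, *Parp3* was 0.014 with edgeR and 0.069 with DESeq2. Without control replicate 1, *Parp2* was -0.24 and *Parp9* 0.0037 for DOX+IL-17A against control. For IL-17A against control, *Parp2* was then -0.15, *Parp9* 0.20 and *Dtx3l* -0.12. These estimates were the same without both libraries named above, since DOX replicate 1 is in none of the groups compared. The cause was not tested.

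Leaving out each library in turn, signs changed within these ranges. For DOX against control, *Parp1* ran from -0.10 to 0.032. For DOX+IL-17A against control, *Parp2* ran from -0.24 to 0.61 and *Parp9* from -0.85 to 0.0037. For IL-17A against control, *Parp2* ran from -0.15 to 0.73, *Parp9* from -0.66 to 0.20, *Parp12* from -0.31 to 0.28, *Dtx3l* from -0.16 to 0.26 and the gap between the classes from -0.35 to 0.047. For DOX+IL-17A against IL-17A, *Parp1* ran from -0.068 to 0.12, *Parp2* from -0.51 to 0.22, *Parp9* from -0.32 to 0.019 and *Parp10* from -0.34 to 0.012. For the interaction, *Parp1* ran from -0.017 to 0.17 and *Parp3* from -0.25 to 0.18 (-0.26 without both libraries). Depth limits *Parp10* most, with 36 to 291 reads per library.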

Other observations

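Within 250 kb of *Parp14*, *Dtx3l* and *Parp9* on chromosome 16, 8 other genes were tested, of which 1 rose and 1 fell with DOX, as did 9.15% and 6.18% of all tested genes. Their median log2 difference was 0.54, beside 0.09 over all genes. The estimates ran from -1.51 to 1.64, and *Hspbap1*, *Gm10913* and *Csta1* had low control means of 2.05, 3.86 and 1.25. *Wdr5b* went from a mean of 1.08 to 4.39 (log2 difference 1.48, limma adjusted p = 0.018) and *Fam162a*, a mitochondrial protein gene, from 671 to 209 (-1.51, adjusted p = 0.00359). *Fam162a* was at 189.5 with DOX+IL-17A and at 692 with IL-17A. *Hspbap1*, next to *Parp14*, did not pass (1.64, adjusted p = 0.0556), nor did *Kpna1*, next to *Parp9* (0.36, adjusted p = 0.417). The number that rose was 0 to 2 with the other 3 tools. In DOX+IL-17A against DOX, 0 of the 8 passed in limma, with 0 at an unadjusted p under 0.05, and their median was -0.35 beside -0.03 over all genes.

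Of the 7 tested genes that make or use NAD+, the substrate of PARP enzymes, 1 rose and 1 fell with DOX. The shares of all tested genes were 9.15% and 6.18%. The NAD kinase gene *Nadk* rose from 57.6 to 149.8 (1.37, adjusted p = 0.00506) and was at 174 with DOX+IL-17A. *Nmnat2*, which makes NAD+, fell from 29.2 to 7.38 (-1.83, adjusted p = 0.00291) and was at 5.66 with DOX+IL-17A. *Nampt*, the rate-limiting enzyme of NAD+ salvage, passed the adjusted p in DOX+IL-17A against control (-0.63, adjusted p = 0.0497) but not 2-fold. It was therefore not called, and it is named outside the rule for named genes.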
